A study of Homo sapiens with 12 samples.

Results

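Cathepsins are the proteases of the lysosome, the acidic compartment in which cells break down proteins taken up from outside or delivered by autophagy. The 10 cathepsin genes described here, CTSA, CTSB, CTSC, CTSD, CTSF, CTSH, CTSK, CTSL, CTSS and CTSZ, were chosen by gene symbol and not by any measured value, out of 26475 genes in the count files. RNA was sequenced from tumours of SUM159 (SUM159PT), an established human triple-negative breast cancer cell line with mesenchymal features. The cells were grown in female NOD scid gamma mice, which were 8 weeks old at injection. Tumour cells were stained for human CD44 and CD24 and sorted as CD44+ cells with high or low CD24. The sort was made to part differentiated cells from cancer stem cells. The 12 libraries formed 4 groups of 3. FMD_HI and FMD_LO were the CD24-high and CD24-low cells of mice on cycles of a fasting-mimicking diet, given on 4 days of each week, and CTR_HI and CTR_LO were the same populations from untreated mice on a standard diet. All groups came from 1 cell line in 1 mouse strain, which has no mature lymphocytes or natural killer cells but keeps its own macrophages, neutrophils, fibroblasts and vessels.

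Most cathepsins are cysteine proteases of the papain family, while CTSD is an aspartic protease and CTSA a serine carboxypeptidase. They are made as inactive precursors, carried to the lysosome mainly by mannose 6-phosphate receptors, activated by acid and by other proteases, and held in check outside it by cystatins. In breast tumours they are studied because tumour cells and macrophages also secrete them, where they can cleave matrix. The transcription factors TFEB, TFE3 and MITF bind a short element built around CACGTG in promoters of many lysosomal genes and enter the nucleus of starved cells, MITF in some of its forms.

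Counted reads numbered 17736610 to 18579816 in FMD_LO and 29049144 to 47587142 in the other 9 libraries. FMD_LO also stood apart in expression as a whole: on the first principal component (57.4% of the variance) its libraries lay at -88.9 to -79.5 and the others at -2.35 to 46.1. As in the labelled line, the mesenchymal gene VIM and CD44 were high and the epithelial and receptor genes CDH1, EPCAM, ESR1 and PGR near 0. These genes alone do not identify the cells, since fibroblast markers were high in every group too, as given below. Removal of mouse host reads is not described in the labels or notes, and with bulk samples a change in the number of cells of a type and a change in RNA per cell cannot be told apart. The labels do not say that replicates came from separate mice, so the p-values measure the spread between these samples only. Levels are CPM, counts relative to the scaled library total. Differences are log2 fold changes ± standard error from edgeR's quasi-likelihood test over 15461 genes, called where the p adjusted by Benjamini-Hochberg was under 0.05, and every adjusted p below is from that test unless another tool is named.

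The promoter windows of the cathepsins were read first, since CACGTG is the core of that starvation-linked element. RefSeq windows (GRCh38.p14), from 250 bases before to 50 bases after the gene start, were at hand for 7 of the 10 genes: CTSA, CTSC, CTSD, CTSF, CTSH, CTSL and CTSZ. CACGTG, which reads the same on both strands, occurred in 3 of the 7, in CTSA, CTSD and CTSF, and in 7.26% of all 35116 windows of that length. It lay 42 and 25 bases before the start of CTSA (chr20:45891085-45891384, plus strand), 47 bases before that of CTSD (chr11:1763878-1764177, minus strand) and 123 and 51 bases before that of CTSF (chr11:66568557-66568856, minus strand). The related word CATGTG, searched on both strands, was found in CTSA alone among the 7 and in 11.1% of all windows. The 3 windows with CACGTG are printed 5′ to 3′ with that word in capitals.
CTSA: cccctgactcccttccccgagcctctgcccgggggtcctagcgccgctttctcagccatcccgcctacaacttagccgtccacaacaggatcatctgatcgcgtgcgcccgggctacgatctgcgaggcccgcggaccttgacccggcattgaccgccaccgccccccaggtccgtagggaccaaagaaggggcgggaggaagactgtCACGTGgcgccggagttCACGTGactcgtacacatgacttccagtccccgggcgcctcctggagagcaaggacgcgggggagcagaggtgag
CTSD: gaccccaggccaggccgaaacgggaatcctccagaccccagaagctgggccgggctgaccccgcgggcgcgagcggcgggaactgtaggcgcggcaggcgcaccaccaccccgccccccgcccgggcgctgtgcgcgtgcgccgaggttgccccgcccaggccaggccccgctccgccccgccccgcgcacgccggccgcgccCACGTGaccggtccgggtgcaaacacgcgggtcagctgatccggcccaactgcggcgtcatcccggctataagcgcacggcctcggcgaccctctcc
CTSF: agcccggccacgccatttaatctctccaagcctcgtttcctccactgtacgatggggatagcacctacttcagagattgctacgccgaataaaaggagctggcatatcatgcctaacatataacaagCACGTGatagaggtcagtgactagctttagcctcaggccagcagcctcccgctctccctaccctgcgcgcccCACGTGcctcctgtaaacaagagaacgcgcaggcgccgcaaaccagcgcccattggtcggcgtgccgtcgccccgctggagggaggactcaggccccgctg
A match of letters describes the window and says nothing of binding. Of the 3 genes with the word, edgeR on all libraries without a block called CTSA alone. That was between diets in CD24-low cells and between populations under the fasting-mimicking diet. With the replicate number as a block within each diet, edgeR also called CTSD higher in FMD_HI than in FMD_LO (adjusted p = 0.0156). A part of the word in these values was not tested.

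All 10 genes were measured well, with at least 116 counts in every library. Per kilobase of transcript, CTSD, the aspartic endopeptidase of the lysosome, was highest in every group, at 531 ± 32.3 CPM per kilobase in FMD_HI, 403 ± 53.3 in FMD_LO, 353 ± 30.4 in CTR_HI and 350 ± 36.5 in CTR_LO (SD, n = 3). Next came CTSB, a cysteine endopeptidase, CTSZ, a carboxypeptidase, and CTSC, the dipeptidyl peptidase that activates granule proteases of white blood cells. Those 3 stood at 213 to 286 CPM per kilobase in FMD_HI, 176 to 224 in FMD_LO, 178 to 214 in CTR_HI and 175 to 216 in CTR_LO, with CTSB above CTSZ in the FMD groups and CTSZ above CTSB in the CTR groups. Neighbours in each group's order differed by less than the larger of their SDs, except CTSB and CTSZ in FMD_HI. CTSA followed in each group at 63.2 to 98.5 CPM per kilobase. CTSH, CTSL and CTSF lay between 19.5 and 50.1. CTSK, the collagen-cleaving cathepsin of osteoclasts, and CTSS, the cathepsin of antigen-presenting cells, were lowest, both at 2.76 to 3.75 except for CTSK in FMD_LO at 11.7 ± 2.52. With the summed length of all exons in place of the longest principal transcript, CTSC dropped below CTSA in every group. In CTR_HI and CTR_LO it also dropped below CTSH, and in FMD_HI CTSL dropped below CTSH.

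**Figure D1:**
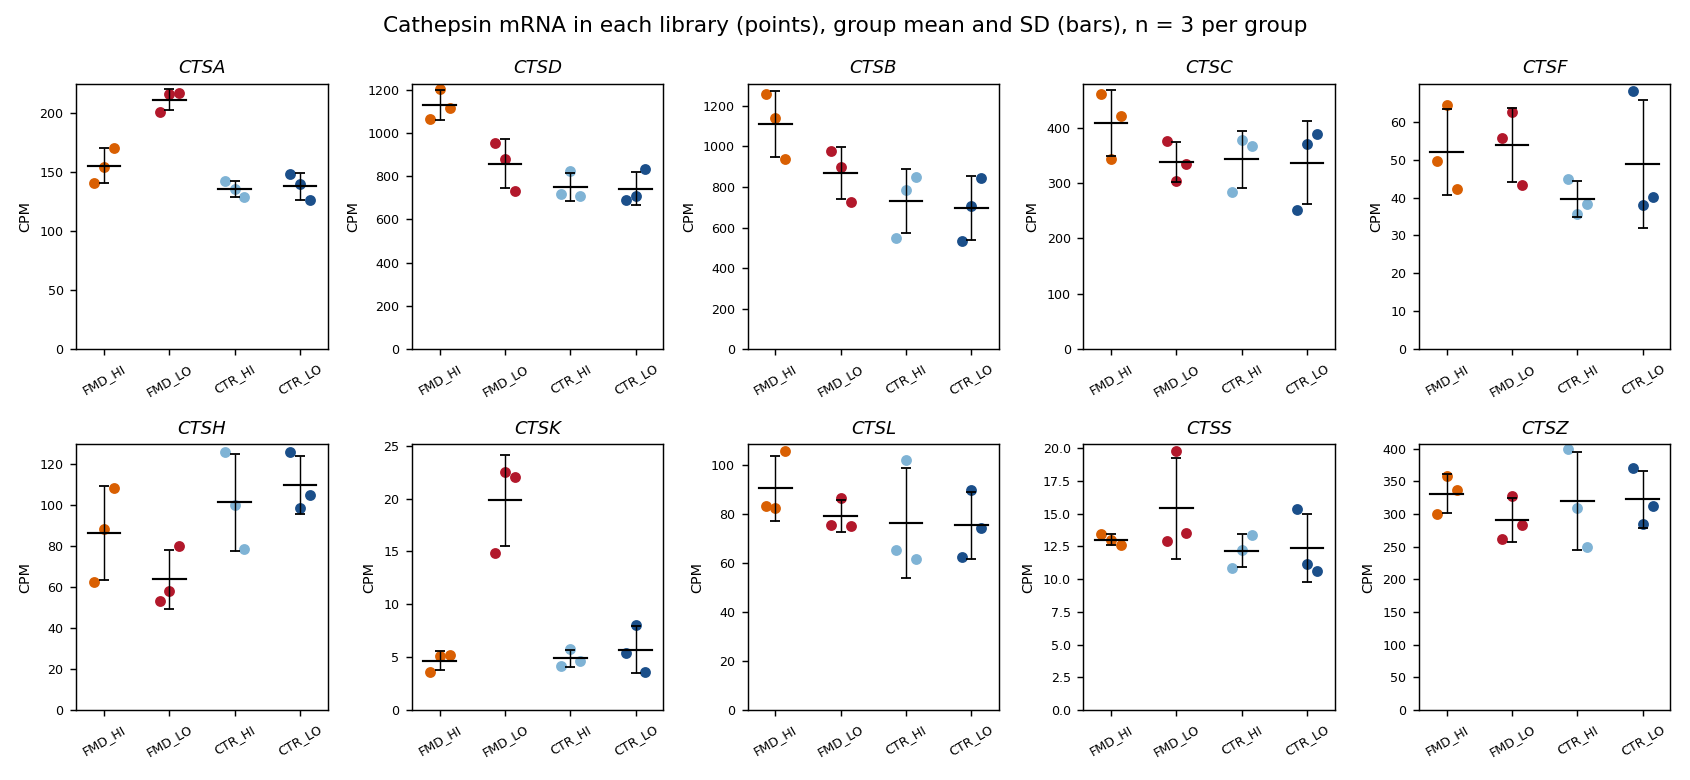
Level of each cathepsin in CPM (vertical axes, from 0) in the 12 libraries; points are libraries, bars the group mean and SD (n = 3), groups in the order FMD_HI, FMD_LO, CTR_HI, CTR_LO. CTSK and CTSA are highest in all 3 FMD_LO libraries, CTSD is highest in all 3 FMD_HI libraries, and CTSH is lowest on average in FMD_LO.

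In CD24-low cells, the first question was what differed between the diets. CTSK and CTSA rose and CTSH fell, and the other 7 cathepsins did not pass the test. Among all genes 16.4% were called in this comparison, 12% higher and 4.33% lower, beside 3 of the 10 cathepsins, 2 higher and 1 lower. With so few genes, that count is not set apart from the background. The median log2 fold change of the 10 was 0.17, against -0.03 over all genes tested, with 8 positive and 2 negative. Groups that did not overlap in CPM were found for CTSK and CTSA on the higher side, beside 19.7% of all genes, and for CTSH on the lower side, beside 17.8%.

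CTSK had 14.9, 22.5 and 22.1 CPM in FMD_LO, against 5.39, 8.10 and 3.65 CPM in CTR_LO, from 251 to 407 counts in FMD_LO and 123 to 260 in CTR_LO. Every FMD_LO library lay above every CTR_LO library, and the lowest of them was the first replicate. The means were 19.8 ± 4.27 CPM in FMD_LO and 5.71 ± 2.24 in CTR_LO (SD, n = 3 each), a ratio of 3.47. The log2 fold change was 1.80 ± 0.27 (adjusted p = 5.46e-04), and it was called in all 19 alternative fits, with adjusted p from 1.56e-09 to 0.00549. CTSK (chromosome 1, 150796208 to 150808260, GRCh38.p14) lies 30429 bases from CTSS (chromosome 1, 150730188 to 150765778). CTSS did not pass the same test, with 12.9, 19.8 and 13.5 CPM in FMD_LO and 15.4, 11.2 and 10.6 in CTR_LO, which overlapped (0.31 ± 0.19, adjusted p = 0.275).

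CTSA, the carboxypeptidase that also shields beta-galactosidase and neuraminidase 1 in the lysosome (chromosome 20, 45891335 to 45898820), had 201, 216 and 217 CPM in FMD_LO, against 149, 140 and 126 CPM in CTR_LO. The groups did not overlap, and the FMD_LO libraries lay close together. The means were 212 ± 8.85 CPM in FMD_LO and 138 ± 11.4 in CTR_LO, a ratio of 1.53 and a log2 fold change of 0.61 ± 0.11 (adjusted p = 0.00178). CTSA overlaps PLTP and NEURL2 on the opposite strand, and the counts used here are from its own strand. It was called in all 19 alternatives, counts of either strand included, with adjusted p at most 0.0158.

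CTSH, an aminopeptidase (chromosome 15, 78921058 to 78945046), had 53.1, 58.1 and 80.2 CPM in FMD_LO, against 126, 98.3 and 105 CPM in CTR_LO. All FMD_LO values lay below all CTR_LO values, the third FMD_LO library nearest to them. The means were 63.8 ± 14.4 and 110 ± 14.3 CPM in that order, a ratio of 0.582 and a log2 fold change of -0.78 ± 0.22 (adjusted p = 0.0313). This call rested on single libraries: it was lost without FMD_LO replicate 1 (adjusted p = 0.132), FMD_LO replicate 2 (0.127), CTR_LO replicate 1 (0.107) or CTR_LO replicate 3 (0.0796).

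The remaining 7 gave log2 fold changes from -0.15 for CTSZ to 0.32 for CTSB, with adjusted p from 0.275 to 0.99. CTSB had 979, 896 and 728 CPM in FMD_LO and 535, 707 and 846 in CTR_LO, and CTSD had 955, 881 and 733 CPM in FMD_LO and 689, 708 and 831 in CTR_LO. Both pairs of groups overlapped. CTSL, a broad endopeptidase, differed by 0.07 ± 0.19, CTSC by 0.00 ± 0.18 and CTSF, which trims the invariant chain in mouse macrophages, by 0.14 ± 0.23.

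Some markers of other cells differed in the same libraries. Of 16 macrophage and leukocyte markers, 13 were tested, 8 rose and none fell, beside 12% of all genes rising and 4.33% falling. Their summed level was 188 to 221 CPM in FMD_LO and 29.4 to 45.8 in CTR_LO. PTPRC, which encodes the leukocyte antigen CD45, was at 44.7 to 59.9 CPM in FMD_LO and 2.52 to 3.23 in CTR_LO, while TYROBP, an adaptor of myeloid receptors, was near 0 in every group, with at most 2 counts. Of 7 osteoclast markers, 4 were tested and 2 rose, OSCAR and MMP9, at ratios of means of 11.8 and 11.7 without overlap. ACP5 and TNFRSF11A, also tested, overlapped between the groups, at ratios of 0.793 and 0.921. That list's sum overlapped between the groups, at 66.1 to 68.1 CPM in FMD_LO and 52.1 to 75.7 in CTR_LO. ACP5, the tartrate-resistant phosphatase of osteoclasts, did not pass (-0.34 ± 0.20, adjusted p = 0.278), and the osteoclast fusion gene OCSTAMP was near 0 in every group, with at most 3 counts. Fibroblast markers summed to 19172 to 31370 CPM in FMD_LO and 8025 to 16655 in CTR_LO, with 3 of 10 tested rising. Of those 10, 9 had a positive log2 fold change, but DCN and LUM overlapped between the groups, at ratios of means of 1.12 and 0.847. Endothelial markers summed to 48.8 to 93.7 CPM in FMD_LO and 31.8 to 40.0 in CTR_LO, with 2 of 9 tested rising. With so few genes, the osteoclast, fibroblast and endothelial counts are not set apart from the 12% of all genes. The part of these cells in the cathepsin values was not tested. With every library thinned to the smallest total, the adjusted p was 2.47e-04 for CTSK, 0.00167 for CTSA and 0.0391 for CTSH.

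**Figure D2:**
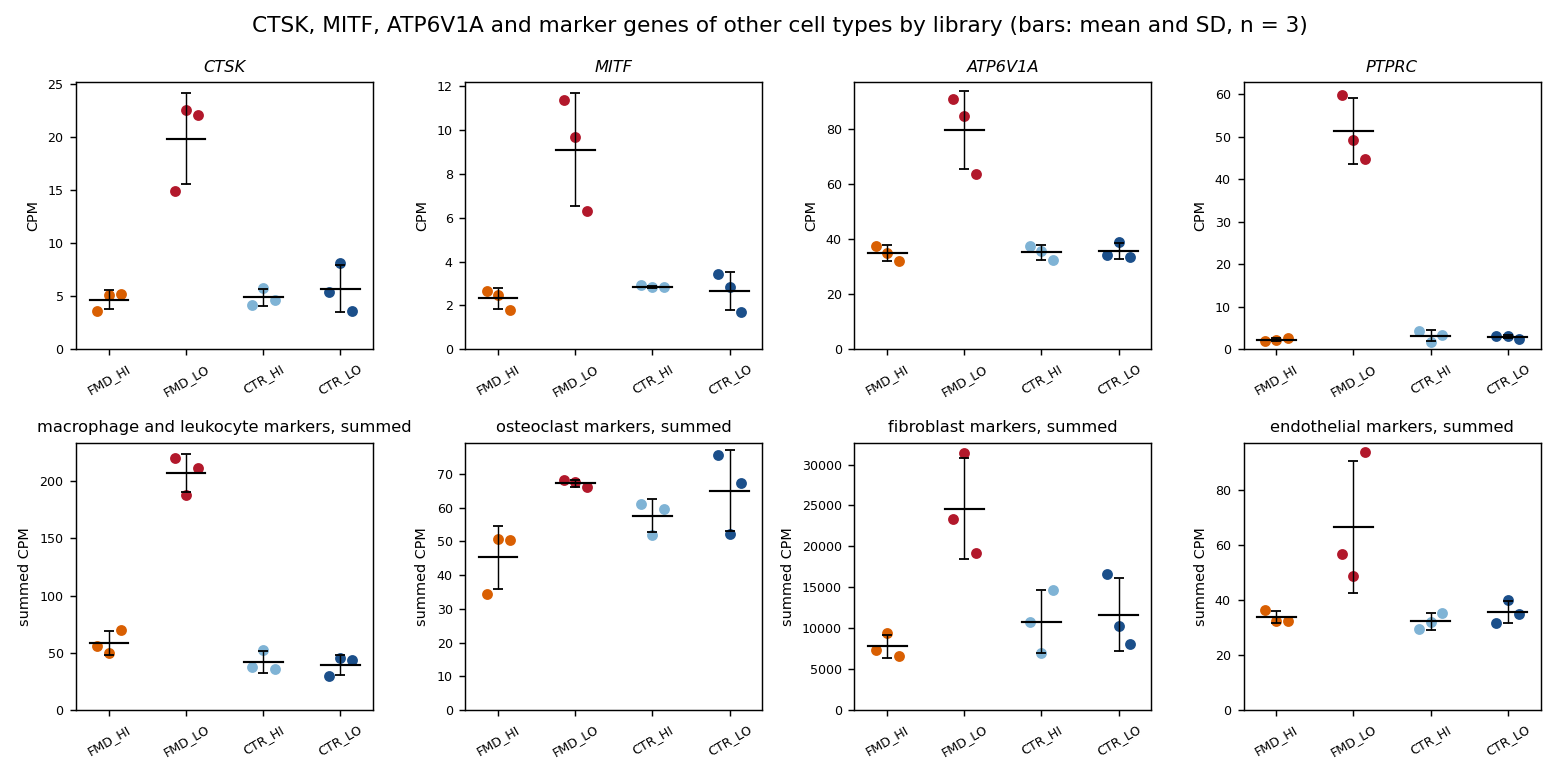
Levels in CPM (vertical axes, from 0) of CTSK, MITF, ATP6V1A and PTPRC, and summed CPM of 4 marker lists, in the 12 libraries; points are libraries, bars mean and SD (n = 3). CTSK, MITF, ATP6V1A, PTPRC and the leukocyte sum are highest in the 3 FMD_LO libraries, while the osteoclast sum overlaps between FMD_LO and CTR_LO.

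The same question was asked of CD24-high cells. No cathepsin was called in FMD_HI against CTR_HI, and the share called among all genes was 0%. At an unadjusted p below 0.05 there were 1042 genes, 2 of them cathepsins, and DESeq2 called 78 genes with 1 cathepsin among them, CTSD. The median log2 fold change of the 10 was 0.22, against 0.00 over all genes tested, with 8 positive and 2 negative.

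CTSD (chromosome 11, 1752755 to 1763927) had 1064, 1201 and 1117 CPM in FMD_HI, against 720, 824 and 706 CPM in CTR_HI. The 2 groups did not overlap, and the highest CTR_HI library was well short of the lowest FMD_HI library. The means were 1127 ± 68.7 CPM in FMD_HI and 750 ± 64.5 in CTR_HI (SD, n = 3 each), a ratio of 1.5. The log2 fold change was 0.59 ± 0.13, with adjusted p = 0.342 in edgeR and 0.0134 in DESeq2, so that the call depended on the tool. In GENCODE, a protein-coding gene without a standard name overlaps CTSD on the same strand, and how reads between them were shared is not known.

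CTSB had 1256, 1137 and 937 CPM in FMD_HI, against 551, 786 and 849 CPM in CTR_HI. The groups did not overlap, though the lowest FMD_HI library was close to the highest CTR_HI library. The ratio of means was 1.52 and the log2 fold change 0.61 ± 0.20 (adjusted p = 0.555). Non-overlap of this kind, higher in FMD_HI, was found for 2 of 10 cathepsins and for 4.48% of all genes, and on the lower side for none of the 10 and 4.72% of all genes. The 3 cathepsins called in CD24-low cells gave -0.06 ± 0.27 for CTSK, 0.20 ± 0.11 for CTSA and -0.23 ± 0.22 for CTSH here, with adjusted p from 0.819 to 0.999. The remaining 5 lay between 0.05 for CTSZ and 0.39 for CTSF. Leukocyte markers summed to 49.8 to 69.9 CPM in FMD_HI and 36.1 to 52.8 in CTR_HI. Fibroblast markers summed to 6642 to 9379 in FMD_HI and 6933 to 14670 in CTR_HI. None of either list was called, as no gene was (0%). Of 13 leukocyte markers tested, 12 were positive, with a median log2 fold change of 0.74, against 0.00 over all genes tested. Of 10 fibroblast markers tested, 9 were negative, with a median of -0.63.

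**Figure D3:**
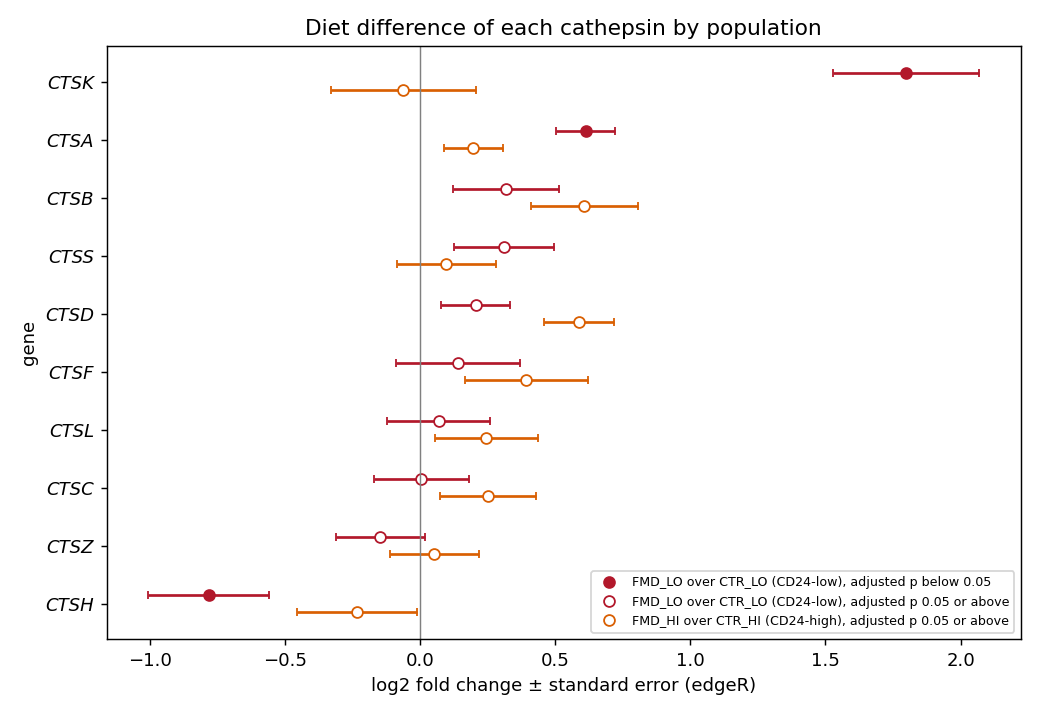
Log2 fold change ± standard error (horizontal axis) of each cathepsin between diets, FMD_LO over CTR_LO in red and FMD_HI over CTR_HI in orange; filled points have an adjusted p below 0.05. CTSK at 1.80 and CTSA at 0.61 are called on the right and CTSH at -0.78 on the left in CD24-low cells, and none is called in CD24-high cells.

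The diet difference itself was compared between the populations, as the difference in CD24-low minus that in CD24-high cells. CTSK was the only 1 of the 10 called, with a log2 difference of 1.86 ± 0.38 (adjusted p = 0.0147), against 4.13% of all genes, 4.07% higher and 0.0517% lower. It was called in all 19 alternatives, with adjusted p from 9.79e-05 to 0.0400. CTSA gave 0.42 ± 0.15 (adjusted p = 0.186), CTSH -0.55 ± 0.31 (0.461) and CTSD -0.38 ± 0.18 (0.34), and none of those 3 passed without a block. With the replicate number as a block within each diet, edgeR also called CTSA (adjusted p = 0.0248) and CTSH (0.0335). That fit called 1702 of all genes, against 638 without a block. For the other 6 the adjusted p without a block was 0.700 or higher.

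Between the populations under the fasting-mimicking diet, CTSK and CTSA were lower in FMD_HI than in FMD_LO, beside 12.2% of all genes lower, 1.84% higher and 14% called either way. On the lower side CTSK and CTSA did not overlap between the groups, as 18.3% of all genes, and on the higher side CTSD did not, as 13.1%. This comparison shares the FMD_LO libraries with the one between diets, so its values are not a second observation of them. CTSK had 3.65, 5.16 and 5.20 CPM in FMD_HI, against the 14.9, 22.5 and 22.1 CPM in FMD_LO, a ratio of 0.236 and a log2 fold change of -2.08 ± 0.27 (adjusted p = 1.77e-04). CTSA had 141, 155 and 171 CPM in FMD_HI, against 201, 216 and 217 CPM in FMD_LO. Its log2 fold change was -0.44 ± 0.11 (adjusted p = 0.0134), and the call was lost without FMD_LO replicate 2 (0.0697), FMD_LO replicate 3 (0.0558), FMD_HI replicate 1 (0.0594) or FMD_HI replicate 2 (0.0659).

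CTSD was higher in all 3 FMD_HI libraries than in any FMD_LO library, with means of 1127 ± 68.7 CPM in FMD_HI and 856 ± 113 in FMD_LO (n = 3 each). Its log2 fold change of 0.40 ± 0.13 missed the threshold in edgeR (adjusted p = 0.0563). DESeq2 called it (0.0423), and it passed in edgeR without FMD_LO replicate 1 (0.0478), CTR_LO replicate 3 (0.0498) or CTR_HI replicate 2 (0.0481). CTSH gave 0.44 ± 0.22 (adjusted p = 0.24), CTSB 0.36 ± 0.20 (0.279) and CTSC 0.27 ± 0.18 (0.361), each with overlapping groups and none called without a block. Within each pair of FMD libraries of the same replicate number, all 4 of these genes were higher in FMD_HI than in FMD_LO. CTSH had 62.5, 88.4 and 108 CPM in FMD_HI, against 53.1, 58.1 and 80.2 CPM in FMD_LO. CTSC had 461, 343 and 422 CPM in FMD_HI, against 376, 304 and 335 CPM in FMD_LO. With the replicate number as a block within each diet, CTSB (adjusted p = 0.00376), CTSH (0.0116), CTSD (0.0156) and CTSC (0.0283) were called higher in FMD_HI, and CTSK (5.00e-06) and CTSA (0.00104) lower. That made 4 cathepsins higher and 2 lower, beside 10.3% of all genes higher, 16.8% lower and 27.2% either way. Leukocyte markers differed here too, summing to 49.8 to 69.9 CPM in FMD_HI and 188 to 221 in FMD_LO, and their part in the CTSK and CTSA values was not tested.

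Between the populations under the standard diet, no cathepsin was called, nor was any gene (0%). No cathepsin had an unadjusted p below 0.05 in edgeR, 91 genes did, and DESeq2 called no gene. The log2 fold changes of CTR_HI over CTR_LO ran from -0.30 for CTSF to 0.07 for CTSB. CTSK had 4.19, 5.79 and 4.67 CPM in CTR_HI and 5.39, 8.10 and 3.65 in CTR_LO, and CTSA had 143, 136 and 129 CPM in CTR_HI and 149, 140 and 126 in CTR_LO. The groups overlapped for all 10 genes, while 1.47% of all genes were higher and 1.96% lower without overlap.

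Over the 12 libraries the cathepsins varied unequally. The highest library exceeded the lowest 6.16-fold for CTSK, 2.37-fold for CTSH and 2.35-fold for CTSB, and 1.60-fold to 1.91-fold for the other 7. The summed level of the 10 genes was 3257 to 3446 CPM in FMD_HI, 2530 to 2985 in FMD_LO, 2346 to 2689 in CTR_HI and 2272 to 2737 in CTR_LO. CTSB and CTSD, the most counted of them, made up most of the higher sum in FMD_HI.

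Beyond the 10, cathepsin genes CTSE, CTSG, CTSW, CTSO and CTSV were looked up, and CTSO and CTSV had enough counts to test. Neither was called, with a log2 fold change of FMD_LO over CTR_LO of 0.17 ± 0.20 for CTSO and -1.02 ± 0.46 for CTSV. Of 15 inhibitor genes, 6 were tested and none was called between diets in either population, nor between populations without a block. Among all genes 16.4% were called between diets in CD24-low cells and 0% in CD24-high cells. Between populations, 14% were called under the fasting-mimicking diet and 0% under the standard diet. With so few genes, the lack of a call is not set apart from these shares. With the block, 5 of the 6 were higher in FMD_HI than in FMD_LO, beside 10.3% of all genes, among them CSTA (0.59 ± 0.12, adjusted p = 0.00454) and CSTB (0.53 ± 0.09, adjusted p = 0.00129). The other 3 were the serpins SERPINB3, SERPINB4 and SERPINB13. SERPINB3 and SERPINB4 are near-identical copies, so their counts are uncertain. CST3, the secreted cystatin C that blocks cysteine cathepsins, differed by -0.19 ± 0.13 in CD24-low and 0.09 ± 0.13 in CD24-high cells between diets. CSTB, the cytosolic cystatin B, differed by -0.22 ± 0.19 and 0.25 ± 0.19 in the same order. The median over the 6 was -0.10 in CD24-low cells and 0.59 in CD24-high cells.

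Of 9 genes that tag or carry lysosomal enzymes, 2 rose in FMD_LO against CTR_LO and none fell, beside 12% of all genes rising and 4.33% falling. They were M6PR, the cation-dependent mannose 6-phosphate receptor (0.35 ± 0.11, adjusted p = 0.0381), and GGA1, an adaptor of that receptor (0.41 ± 0.12, adjusted p = 0.0294). Neither call was firm: each was lost without any 1 of FMD_LO replicates 1 and 2 and the 3 CTR_LO libraries, GGA1 also without FMD_LO replicate 3 and M6PR without FMD_HI replicate 2, with adjusted p from 0.0515 to 0.130. Both were also lost without the count filter (0.0956 for M6PR and 0.0594 for GGA1). IGF2R, the larger mannose 6-phosphate receptor, gave 0.08 ± 0.16 (adjusted p = 0.779). Of 9 partner proteins and other lysosomal proteases only 1 rose, which is near that share. LGMN, the asparaginyl endopeptidase that can activate cathepsins, rose (0.47 ± 0.12, adjusted p = 0.0176). Its call was lost without FMD_LO replicate 1 (0.0778), CTR_LO replicate 1 (0.0658) or CTR_LO replicate 2 (0.0863). GLB1 and NEU1, whose products CTSA protects, each differed by 0.07 with an adjusted p of at least 0.740. Among the other lysosomal hydrolases, FUCA1, a fucosidase, rose by 0.95 ± 0.14 (adjusted p = 3.69e-04).

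The genes of the lysosomal membrane and its acidification moved more. Of 19, 7 rose and none fell in FMD_LO against CTR_LO, beside 12% of all genes rising, and the list's median log2 fold change was 0.37 against -0.03 over all genes. All 7 encode subunits of the V-ATPase, the proton pump that gives cathepsins the acid they need. ATP6V1A, its catalytic subunit, had 90.9, 84.8 and 63.9 CPM in FMD_LO, against 34.5, 38.9 and 33.5 CPM in CTR_LO (1.17 ± 0.14, adjusted p = 9.26e-05). The groups stood far apart, with no library between 38.9 and 63.9 CPM. ATP6V1H rose by 1.02 ± 0.12 (adjusted p = 8.86e-05), ATP6V1C1 by 0.97 ± 0.14 (4.50e-04), ATP6V1B2 by 0.83 ± 0.18 (0.00699) and ATP6V0D1 by 0.54 ± 0.11 (0.00319). ATP6V0A1 (0.47 ± 0.14, adjusted p = 0.0350) lost its call without FMD_LO replicate 1 or 2 or CTR_LO replicate 1 or 2, at up to 0.115. ATP6V0C (0.45 ± 0.14, adjusted p = 0.0404) lost its own without FMD_LO replicate 1 or 2, any CTR_LO library, FMD_HI replicate 2 or 3 or CTR_HI replicate 1, at up to 0.171. The membrane protein LAMP1, one of the most abundant of the lysosome, differed by -0.10 ± 0.11 (adjusted p = 0.580).

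In CD24-high cells none of these lists had a called gene between diets, and the medians were 0.14 for the membrane list, 0.14 for partners, 0.17 for hydrolases and -0.01 for sorting. The diet difference was larger in CD24-low than in CD24-high cells for ATP6V1A, at 1.18 ± 0.19 (adjusted p = 0.00422), ATP6V1H, at 0.92 ± 0.17 (0.00739), and ATP6V1C1, at 0.98 ± 0.20 (0.0144). Between the populations under the fasting-mimicking diet, 5 of the 19 were lower in FMD_HI than in FMD_LO and none higher, beside 12.2% of all genes lower and 1.84% higher. With the replicate block 8 were lower and 3 higher, beside 16.8% and 10.3% of all genes.

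**Figure D4:**
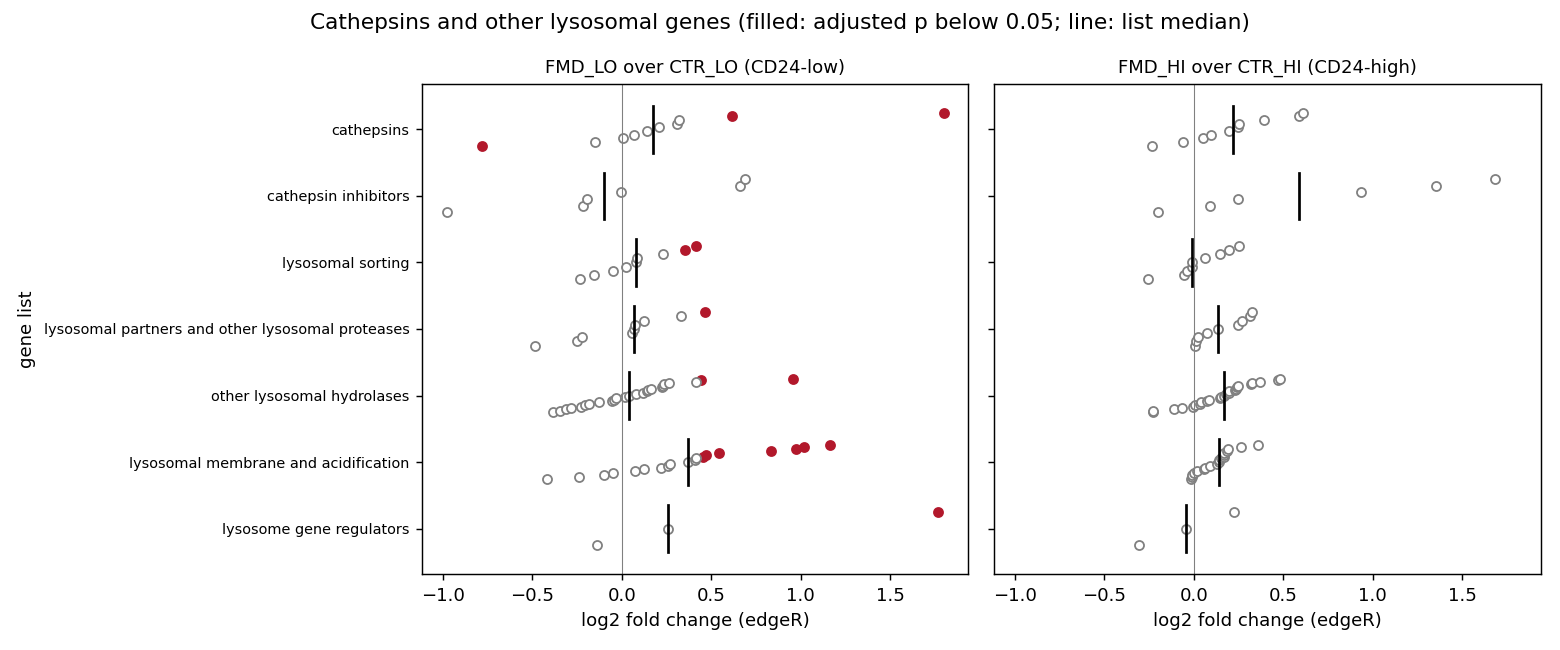
Log2 fold change (horizontal axes) of each tested gene of the cathepsins and 6 lysosomal lists, FMD_LO over CTR_LO on the left and FMD_HI over CTR_HI on the right; filled points have an adjusted p below 0.05 and vertical lines are list medians. In CD24-low cells 7 of 19 membrane and acidification genes are filled, all higher, and no point is filled in CD24-high cells.

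Of the transcription factors that bind the CACGTG element, TFEB, TFE3 and MITF were tested and TFEC was below the count filter. MITF, which also directs osteoclast and melanocyte genes and is known to drive CTSK in osteoclasts, had 11.3, 9.66 and 6.29 CPM in FMD_LO, against 3.42, 2.82 and 1.72 CPM in CTR_LO. The groups did not overlap. MITF rose by 1.77 ± 0.28 (adjusted p = 7.43e-04), with no call lost in any alternative, and the diet difference exceeded that in CD24-high cells by 2.07 ± 0.39 (adjusted p = 0.00917). TFE3 gave 0.26 ± 0.12 (adjusted p = 0.166) and TFEB -0.14 ± 0.12 (0.465). CACGTG was found in 16 of the 88 promoter windows matched for the lysosomal and other pathway lists, 18.2%, against 7.26% of all windows. These are counts of windows, and some genes had several. ATP6V1A, ATP6V1B2, ATP6V1C1, ATP6V1H and CTSK had no window. Of the other V-ATPase genes called in CD24-low cells, ATP6V0D1 had the word and ATP6V0A1 and ATP6V0C did not. A part of MITF or of the word in the cathepsin and V-ATPase values was not tested.

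Of 8 substrate genes, 4 were tested. COL1A2 and COL1A1, the chains of type I collagen that CTSK cleaves, rose in FMD_LO by 1.87 ± 0.41 (adjusted p = 0.00985) and 0.89 ± 0.21 (adjusted p = 0.00987). ELN, elastin, which CTSK and CTSS can degrade, fell by 0.97 ± 0.20 on the log2 scale (adjusted p = 0.00472). CD74, the invariant chain that CTSS trims, differed by -0.14 ± 0.33 (adjusted p = 0.809). The call of COL1A1 was lost without FMD_LO replicate 2 (0.0513) or CTR_LO replicate 3 (0.0503). The fibroblast marker sum was also higher in FMD_LO, as given above, with 3 of 10 tested markers called, beside 12% of all genes rising. That list itself holds the collagen genes COL3A1 and COL6A3. The part of fibroblasts in these values was not tested.

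Genes with the most similar profile were sought for the 3 cathepsins that edgeR called in any comparison on all libraries without a block. They were taken by the smallest root mean square difference of centred log2 CPM over the 12 libraries, among 11675 genes of at least 2 CPM on average. The SD of centred log2 CPM was 0.949 for CTSK, 0.282 for CTSA and 0.417 for CTSH. For CTSK the nearest were MED7 at 0.235, SLC25A4 at 0.259 and RHOV at 0.261. MED7, a subunit of the Mediator complex, averaged 3.82 CPM in FMD_HI, 12.8 in FMD_LO, 4.17 in CTR_HI and 4.62 in CTR_LO, and SLC25A4, a mitochondrial ADP and ATP carrier, averaged 17.8, 106, 19.8 and 23.9 CPM in the same order. For CTSA the nearest were SUPT4H1 at 0.0759, CNPPD1 at 0.0835 and CTDNEP1 at 0.088. For CTSH they were CCDC167 at 0.0882, MRPL1 at 0.0965 and CPA4, a carboxypeptidase, at 0.129. CPA4 averaged 89.0 CPM in FMD_HI, 63.3 in FMD_LO, 107 in CTR_HI and 102 in CTR_LO, lowest in FMD_LO as was CTSH. These likenesses are descriptions over libraries that differ in group, depth and marker levels.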

How the data were processed

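RNA was extracted from sorted cells and made into strand-specific polyadenylated libraries, per the labels' protocols. Per the submitters' processing notes, the authors aligned reads with STAR to hg38. Neither its version nor an annotation is named there. The deposited values were raw counts per gene symbol, and the column of the reverse strand was used.

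All 4 groups were fitted together with edgeR 4.0.16 in R 4.3.3 (TMM scaling, default filter, robust quasi-likelihood, 8 residual degrees of freedom, biological coefficient of variation 0.19), a step tested on simulated data. Of the genes, 15461 passed the filter and 11014 did not. The 5 comparisons were the diets within each population, the populations within each diet, and the interaction. Standard errors were derived from the log2 fold change and its F statistic, as their absolute value over the square root, and are approximate. CPM used TMM-scaled totals. Levels per kilobase used GENCODE lengths. Positions and promoter windows came from RefSeq.

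Replicate numbers are in the labels, with no statement that they mark a shared mouse or day. Under the fasting-mimicking diet, same-numbered FMD_HI and FMD_LO libraries deviated together from their group means, with correlations of 0.285 to 0.485. For other numbers they were -0.372 to -0.0376. Deviations from a group mean cancel out within the group, so the second range follows in part from the first and is no independent contrast. Blocked values are given beside that comparison and the interaction, from a fit that also blocked the CTR libraries by number. There is no proof that the numbers mark pairs.

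The genes, lists and naming rule were chosen with earlier results of these data known. Named were all 10 cathepsins in every comparison, fixed anchor genes, and up to 4 called genes with the smallest p per list and direction, of which the text prints part. The alternatives tried were DESeq2 1.42.0, RLE scaling, counts of both strands together, testing without a count filter, fitting the compared groups alone, a block by replicate number, and leaving out each library in turn. Thinning, exon-union lengths and the alternatives for list genes were added after seeing the data. A result among the lysosomal hydrolases is not reported here.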

Additional observations from a re-analysis of the deposited data

Results flagged for a closer look

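Of the 10 cathepsins 1, and of the 77 other genes tested in the cathepsin and lysosome lists 6, had a diet difference that was not the same in the 2 populations, by the test of the difference itself (the interaction in edgeR, adjusted p below 0.05). Over all genes tested, 638 were called in that test, or 4.13%, so these shares are not set apart from the background. Macrophage and leukocyte markers were called too, 5 of 13 tested. The log2 difference in CD24-low minus that in CD24-high cells was 1.86 for CTSK. It was 2.97 for COL1A2, 1.55 for COL1A1, 2.07 for MITF, 1.18 for ATP6V1A, 0.98 for ATP6V1C1 and 0.92 for ATP6V1H. All 7 also rose in FMD_LO against CTR_LO, and none was called in FMD_HI against CTR_HI. In FMD_HI against CTR_HI, COL1A1 and MITF were lower without overlap, at ratios of means of 0.631 and 0.811, beside 4.72% of all genes. COL1A2 stood at 0.466 with overlap, CTSK at 0.956, ATP6V1A at 0.991, ATP6V1C1 at 0.993 and ATP6V1H at 1.07. The differences for COL1A1, COL1A2 and MITF thus hold a lower CD24-high value as well as a higher CD24-low one. The leukocyte and fibroblast marker sums were higher in the same FMD_LO libraries than in CTR_LO, and their part was not tested. COL1A2 lost this call without the count filter (adjusted p = 0.0593) and with a replicate block within each diet (0.0514).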

How the results depend on the processing

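Over the 50 log2 fold changes of the 10 cathepsins, 970 alternatives were computed. Direction and call were kept in 912, a call was lost in 8 and gained in 11, and the sign turned in 39, none of them from a called value. CTSK kept its 3 calls in every alternative. RLE scaling lost no cathepsin call. The genes called between diets in CD24-low cells numbered 1562 to 2795 with 1 library left out, against 2533 with all, and were 1662 without FMD_LO replicate 1, 1562 without FMD_LO replicate 2 and 1577 without CTR_LO replicate 3. In CD24-high cells, against 0 with edgeR on all libraries, 1 gene was called without the count filter, 1 with a replicate block, 78 with DESeq2, among them 1 cathepsin (CTSD), and 0 to 1 with 1 library left out. For the interaction, 638 genes were called, 1134 with DESeq2 and 380 to 767 with 1 library left out, with 412 without FMD_LO replicate 1, 380 without FMD_LO replicate 2, 409 without CTR_LO replicate 3 and 403 without FMD_HI replicate 2. Between the populations under the fasting-mimicking diet 1 to 3 cathepsins were called with 1 library left out, against 2.

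Under the standard diet, same-numbered CTR_HI and CTR_LO libraries had correlations of 0.445, 0.522 and 0.0373 for replicates 1, 2 and 3. Over both diets 11 of 12 libraries correlated best with their own number. The fit with a replicate block within each diet used all 12 libraries, with the CTR numbers as blocks too. All blocks shared 1 estimate of the spread, so its p-values for FMD_HI against FMD_LO rest in part on the CTR pairs. It also leaves fewer residual degrees of freedom than the 8 of the main fit. With a replicate block within each diet, FMD_HI over FMD_LO gave 4201 genes called against 2163, and 6 cathepsins against 2. The interaction gave 1702 genes and 3 cathepsins, adding CTSA (0.0248) and CTSH (0.0335).

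Signs that turned belonged to small differences. CTSC, FMD_LO over CTR_LO, was -0.00351 with both strands counted and -0.0185 without the count filter, and CTSL, CTR_HI over CTR_LO, was -0.00356 with the block. With 1 library left out the log2 fold changes ran over ranges that crossed 0, for FMD_LO over CTR_LO CTSC -0.178 to 0.129, CTSF -0.0218 to 0.451, CTSL -0.0577 to 0.195, IGF2R -0.054 to 0.204, and for FMD_HI over CTR_HI CTSK -0.159 to 0.0946, CTSZ -0.0967 to 0.245, and for FMD_HI over FMD_LO CTSF -0.21 to 0.0847, and for CTR_HI over CTR_LO CTSA -0.0755 to 0.0263, CTSB -0.0997 to 0.243, CTSC -0.153 to 0.153, CTSD -0.0661 to 0.116, CTSF -0.458 to 0.0149, CTSH -0.298 to 0.0491, CTSK -0.446 to 0.0959, CTSL -0.251 to 0.16, CTSS -0.117 to 0.157, CTSZ -0.206 to 0.143, and for the interaction CTSF -0.422 to 0.0506, CTSS -0.0185 to 0.383. The cause was not tested. Without TMM scaling, no group mean of a cathepsin moved by more than 1 SD.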
